A study of Mus musculus with 59 samples.

Results

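The 6 genes described here are Mpo, Elane, Prtn3, Ctsg, Ms4a3 and Gfi1, which mark precursors of granulocytes. A gene was taken when the array's annotation gave its symbol alone to a probe set, and each of the 6 has 1 such probe set, out of 34945 probe sets that stand for 18193 genes. The arrays measured RNA of B6C3F1 mice, a hybrid laboratory strain, given baclofen, an agonist of the GABA-B receptor used as a muscle relaxant, or its vehicle of 0.5% methylcellulose. Bone marrow of the right humerus and a cross-section of the spleen were taken 2 h after the last of 1 or 5 daily doses. In each of these tissues there were 4 arrays of baclofen at 1 day, 4 of vehicle at 1 day, 8 of baclofen at 5 days and 4 of vehicle at 5 days, or 40 arrays in the pair of tissues. Liver arrays (7 at 1 day and 12 at 5 days) served as a further level. In 5 of the 7 liver arrays at 1 day the source name gives the opposite treatment to the title and the treatment field, so these 7 are not split by treatment here; no marrow or spleen array has such a conflict. The labels give neither the baclofen dose nor the sex or age of the mice. They number the replicates without stating that each is a separate animal, so a p-value here reflects sample-to-sample spread, which may be technical.

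Granulocyte precursors, the promyelocytes above all, make the enzymes of the primary or azurophil granules and store them there for the life of the cell. The genes are transcribed during a short window and shut off as the cell matures, so that circulating neutrophils carry the enzymes and little of their messenger RNA. Bone marrow is the main site of this process, and in mice the red pulp of the spleen holds a smaller amount of blood cell formation throughout life. Mpo encodes myeloperoxidase, which makes hypochlorous acid. Elane, Prtn3 and Ctsg encode the serine proteases neutrophil elastase, proteinase 3 and cathepsin G. Ms4a3 encodes a membrane protein that marks granulocyte and monocyte progenitors. Gfi1 is a zinc finger repressor needed for neutrophil formation and is also expressed in lymphoid cells.

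Prtn3 and Elane lie side by side on chromosome 10, with 3137 bases between the end of Prtn3 (chr10:79879667-79883174) and the start of Elane (chr10:79886312-79888216). Mpo is at chr11:87793784-87804412, Ctsg at chr14:56099885-56102574, Ms4a3 at chr19:11629499-11640851 and Gfi1 at chr5:107716655-107725805. These coordinates are those of the RefSeq annotation of GRCm38.p6. The promoters of Prtn3, Elane and Mpo are shown because they hold GAGGAAGT. Ctsg and Ms4a3, whose values ran as closely with those of the other members, have no match to it in this window. Each window runs from 250 bases before to 50 bases after the RefSeq start site on the plus strand. Capitals mark GAGGAAGT, a sequence that PU.1 and other ETS factors recognise, and CAACNG, which MYB recognises, and the marked stretches do not overlap.
Prtn3, chr10:79879417-79879716: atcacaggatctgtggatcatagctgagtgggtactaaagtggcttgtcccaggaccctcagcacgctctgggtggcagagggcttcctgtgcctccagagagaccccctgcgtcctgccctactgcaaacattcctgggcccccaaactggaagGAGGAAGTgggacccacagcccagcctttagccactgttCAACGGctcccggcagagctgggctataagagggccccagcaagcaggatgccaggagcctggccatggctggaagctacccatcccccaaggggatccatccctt
Elane, chr10:79886062-79886361: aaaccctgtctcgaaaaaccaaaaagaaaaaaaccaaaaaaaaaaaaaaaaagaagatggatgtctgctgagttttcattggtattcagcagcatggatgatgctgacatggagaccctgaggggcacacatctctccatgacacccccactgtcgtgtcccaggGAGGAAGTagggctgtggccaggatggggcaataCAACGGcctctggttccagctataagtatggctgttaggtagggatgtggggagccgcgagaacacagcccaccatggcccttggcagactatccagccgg
Mpo, chr11:87793534-87793833: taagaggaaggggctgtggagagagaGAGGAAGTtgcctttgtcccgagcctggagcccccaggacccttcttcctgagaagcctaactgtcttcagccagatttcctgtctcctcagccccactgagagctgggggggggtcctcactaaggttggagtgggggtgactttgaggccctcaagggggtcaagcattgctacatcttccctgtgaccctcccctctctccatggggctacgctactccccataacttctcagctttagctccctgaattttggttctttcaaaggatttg

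GAGGAAGT was found on either strand in 3.2% of 32851 mouse promoter windows of this length, and in those of 3 of the 6 genes. It began at -95 in Prtn3, at -85 in Elane and at -224 in Mpo, counted from the start site. CAACNG was found in 35% of the windows and in those of 3 members. It began at -56 in Prtn3 and at -51 in Elane, while the window of Ctsg held it at -93 and, on the other strand, at -36. The C/EBP half-site GCAAT (26.4% of windows) was in 3 members, Elane, Mpo and Ms4a3. In Elane it lay at -57 to -53, just ahead of the MYB sequence. The RUNX sequence TGTGGT (16.8%) was in 1 member, Ctsg, and the glucocorticoid receptor half-site AGAACA (19.0%) was in 2, Elane and Ms4a3. Matches of this kind describe the letters of the windows only.

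Marker genes fitted the names of the tissues, with the clearest exceptions in 4 of the 40 arrays. Over 8 hepatocyte genes, log2 intensity averaged 9.54 in spleen vehicle 5 day replicate 3, 9.45 in spleen baclofen 5 day replicate 5 and 7.06 in spleen vehicle 5 day replicate 1, so liver transcripts were present in these 3 spleen arrays. The same genes averaged 4.97 to 5.25 in the spleen arrays at 1 day. All spleen vehicle 5 day arrays were above that range, the lowest at 5.32. The arrays of that group that were kept may therefore hold some liver transcripts too. Skeletal muscle genes averaged 10.03 in the marrow array of baclofen 1 day replicate 3, and 6.58 to 8.04 over the remaining marrow arrays. Each comparison was repeated without these 4 arrays, and those values are given beside the results that they enter. The tissues appear to have been normalized apart, with median intensities of 72.6 to 76.1 in marrow, 74.3 to 77.6 in spleen and 34.7 to 36.8 in liver. Array intensities have no count behind them, and the number of arrays limits the precision.

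All 6 genes were far brighter in marrow than in spleen. Averaged over the 20 arrays of a tissue, Mpo had a log2 intensity of 14.12 in marrow and 9.36 in spleen, and Elane 13.78 in marrow and 8.69 in spleen. The means were 13.50 and 9.04 for Prtn3, 12.57 and 7.59 for Ctsg and 11.69 and 6.48 for Ms4a3, marrow first. Gfi1 differed least, with 9.16 in marrow and 6.49 in spleen. For every member the dimmest marrow array was above the brightest spleen array. Such separation was not counted over all genes, so it does not set the members apart from other genes. By a different measure, limma's test of the mean difference, 53.8% to 58.7% of all genes were called higher in marrow, depending on the condition.

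The difference between marrow and spleen was read in each condition apart. Mpo was 5.16 ± 0.35 (SE) log2 units higher in marrow than in spleen under baclofen at 1 day, 3.83 ± 0.35 under vehicle at 1 day, 5.03 ± 0.25 under baclofen at 5 days and 4.77 ± 0.35 under vehicle at 5 days. Over Mpo, Elane, Prtn3, Ctsg and Ms4a3 the difference was 4.83 to 5.53 under baclofen and 3.61 to 4.58 under vehicle at 1 day, and 4.68 to 5.29 under baclofen and 4.51 to 5.39 under vehicle at 5 days. Gfi1 was 2.34 to 2.91 log2 units higher in marrow. Without the 4 arrays with transcripts of another tissue the difference of the 5 genes was 4.71 to 5.41 under baclofen at 1 day, 4.58 to 5.18 under baclofen at 5 days and 5.01 to 5.68 under vehicle at 5 days, and that of Gfi1 was 2.24 to 3.16. Whether baclofen changed it is tested further on. All 6 members passed limma's test (adjusted p under 0.05) as higher in marrow in each of the 4 conditions, but so did 54.8%, 53.8%, 58.7% and 54.9% of all 18193 genes, in the order baclofen and vehicle at 1 day, then baclofen and vehicle at 5 days. In this bulk RNA, fewer cells of a type and less RNA per cell cannot be told apart.

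**Figure D1:**
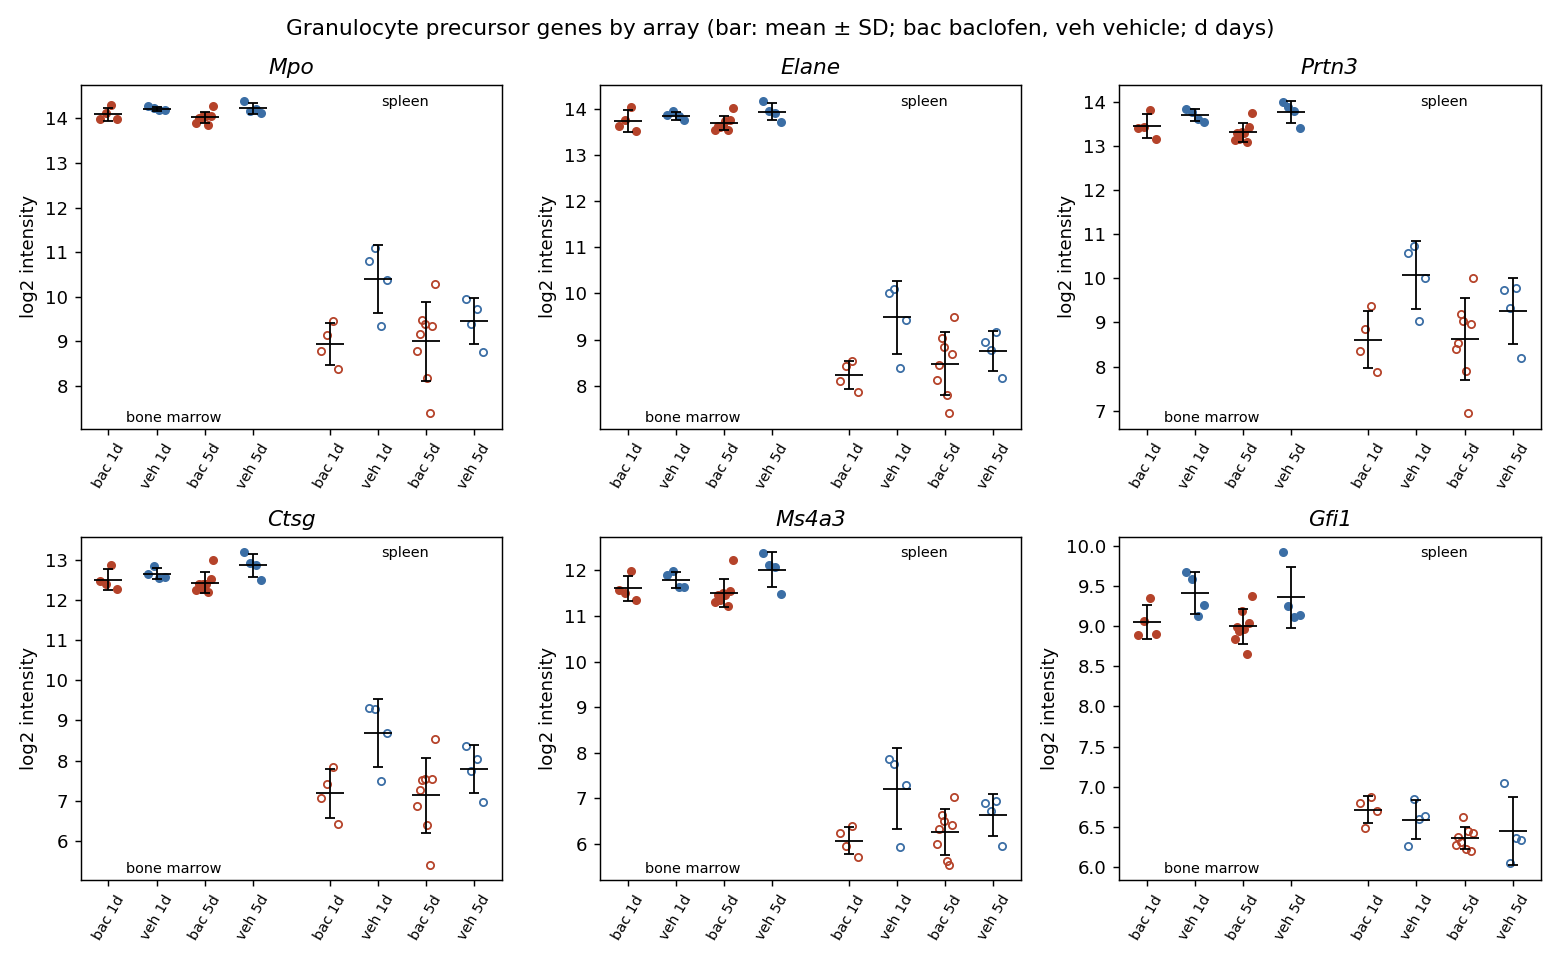
Log2 intensity of each gene (y axis) in every marrow array (filled) and spleen array (open), with baclofen in red and vehicle in blue, at 1 and 5 days; black bars are group means ± SD. Marrow arrays lie above all spleen arrays for each gene shown, a separation that was not counted over all genes. For each gene shown but Gfi1 the spleen vehicle 1 day arrays reach highest of the spleen groups.

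In liver, Mpo, Ctsg, Ms4a3 and Gfi1 were below the 40th percentile of genes, the limit used for testing. Mpo averaged 4.15 there under baclofen and 4.29 under vehicle at 5 days, and had 3.67 to 4.4 over the 7 arrays at 1 day. Elane was just over that limit, with a mean of 5.45, and Prtn3 over it with 6.16. Prtn3 was measured in liver at 5.41 to 6.47 in the 8 baclofen arrays at 5 days (median 5.60), against 7.26, 7.25, 7.58 and 5.80 under vehicle. Over the 7 arrays at 1 day it was 5.64 to 7.58 (median 6.13). Of the members only Prtn3 had liver values that reached into the range of its spleen values (6.95 to 10.73) on the deposited scale. Array medians were 34.7 to 36.8 in liver and 74.3 to 77.6 in spleen, so the ranges are not like for like.

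After 1 dose, Mpo, Elane and Ms4a3 fell in spleen under baclofen relative to vehicle, by 1.14 to 1.46 log2 units. Prtn3 and Ctsg had differences of that size that missed the threshold, and Gfi1 did not share them. Mpo had 8.77, 9.14, 9.46 and 8.37 log2 units in the baclofen spleens, against 10.79, 11.09, 9.33 and 10.37 in the vehicle spleens. Under vehicle only replicate 3 came down into the range of the baclofen arrays, and 3 of 4 baclofen arrays were below it. Mpo fell by 1.46 ± 0.48 log2 units (SE; adjusted p = 0.0459), or 2.74-fold. Elane had 8.11, 8.43, 8.54 and 7.86 under baclofen, against 10.01, 10.09, 8.39 and 9.43 under vehicle. The overlap again came from vehicle replicate 3 alone. Elane fell by 1.24 ± 0.39 (adjusted p = 0.0389). Ms4a3 had 6.24, 5.96, 6.38 and 5.70 under baclofen, against 7.87, 7.76, 5.92 and 7.29 under vehicle, and fell by 1.14 ± 0.37 (adjusted p = 0.0412). Its baclofen means in spleen, 6.07 at 1 day and 6.26 at 5 days, were below the level filter of 6.31, and its vehicle means of 7.21 and 6.62 were above it. Ms4a3 was therefore tested in spleen through the groups in which it was high. These adjusted p-values are from limma. Without the arrays with transcripts of another tissue, which enter here through the shared spread, the adjusted p was 0.0521 for Mpo, 0.0464 for Elane and 0.0482 for Ms4a3.

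Prtn3 had 8.35, 8.86, 9.37 and 7.87 under baclofen, against 10.57, 10.73, 9.03 and 10.00 under vehicle, a difference of -1.47 ± 0.53 (adjusted p = 0.0632). Ctsg had 7.08, 7.41, 7.83 and 6.41 under baclofen, against 9.30, 9.27, 7.48 and 8.69 under vehicle, a difference of -1.51 ± 0.52 (adjusted p = 0.0563). Both groups overlapped through vehicle replicate 3. Gfi1 stood at 6.80, 6.49, 6.87 and 6.70 under baclofen, against 6.26, 6.85, 6.60 and 6.64 under vehicle, with groups that overlap throughout. Its difference was 0.13 ± 0.16, with a 95% interval of -0.21 to 0.46 that leaves out the falls of the other members.

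Counting Ms4a3, 3 of 6 members fell in spleen after 1 dose, and the other 2, Mpo and Elane, were above the filter in every spleen group. Of the 10916 genes tested, 15.5% were called in either direction and 7.91% fell. As a description only, the median difference of the 6 members was -1.35, against -0.03 for all genes. The calls lie close to the threshold of adjusted p under 0.05: without vehicle replicate 3 or baclofen replicate 3 the number rose to 5, and without any other array of these groups it was 0. It was also 0 without the level filter and in a fit of only these groups.

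**Figure D2:**
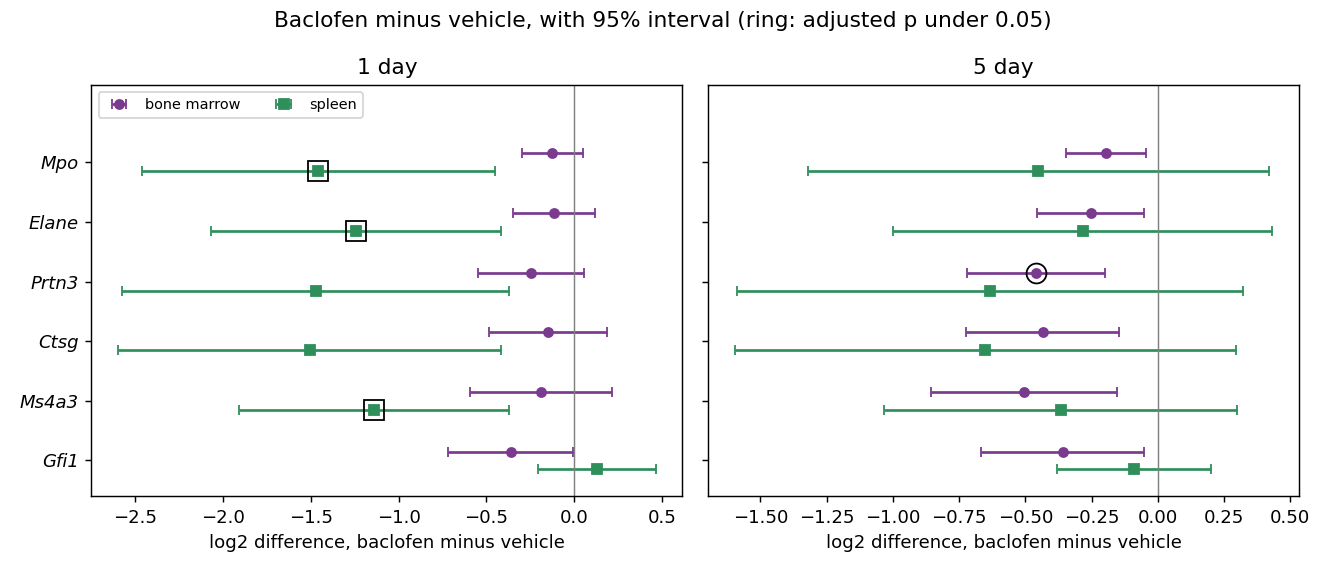
Baclofen minus vehicle for each gene (x axis, log2 units) at 1 day (left) and 5 days (right), in marrow (purple circles) and spleen (green squares), with 95% intervals; a black outline marks adjusted p under 0.05. The spleen differences at 1 day lie between -1.14 and -1.51 for all genes but Gfi1, with wide intervals, and those of marrow are smaller with narrow intervals.

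Genes of other blood cells moved in the same spleens. Of 13 tested genes of secondary granules and mature neutrophils, 4 fell and all 13 were below 0, with a median of -1.13. Those that fell were Mmp9 (-1.13 ± 0.30, adjusted p = 0.0168), a gelatinase of the tertiary granules, Il1b (-1.21 ± 0.32, adjusted p = 0.0170), an inflammatory cytokine, Fcnb (-0.87 ± 0.24, adjusted p = 0.0198), a ficolin, and the chemokine receptor Cxcr2 (-0.73 ± 0.23, adjusted p = 0.0385), by limma. The mean of the 14 genes of this list with a probe set, tested or not, was 8.48 to 8.69 in the baclofen spleens. It was 8.82 to 10.16 in the vehicle spleens, where the lowest value was that of replicate 3. Of 11 monocyte and macrophage genes 4 fell: Spic (-0.77), which directs the formation of red pulp macrophages, Fcgr1 (-0.90), Ccr2 (-1.04) and F13a1 (-1.52). None of the 11 cycling cell genes or 8 erythroid genes passed, with a median of -0.57 in both lists, and none of the 4 hepatocyte genes passed. The other direction was taken by Cd79a (0.48) and Ebf1 (0.59) of 6 B cell genes and by Cd28 (0.66) of 8 T cell genes. Cd79a and Ebf1 missed the threshold without the arrays with transcripts of another tissue (adjusted p of 0.0680 and 0.0595, limma). The part of these cell types in the fall of the granule genes was not tested.

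Among genes of granulocyte formation the changes in spleen after 1 dose were mixed. Of 9 genes listed as receptors of granulocyte progenitors, Csf3r, the receptor for G-CSF, fell by 1.07 ± 0.31 (adjusted p = 0.0261) and Cd177, a neutrophil surface protein that binds proteinase 3 and stands in this list though it also marks mature cells, by 1.35 ± 0.45 (adjusted p = 0.0497), while the receptor kinase Flt3 rose by 0.50 ± 0.15 (adjusted p = 0.0363; limma). Of 13 transcription factors, Myb fell by 0.49 and the lymphoid factors Ikzf1 (0.27) and Lef1 (0.65) rose. None of 11 other azurophil granule and processing genes passed, and their median was -0.09. Of 6 partners of Gfi1 in repression, Rcor1 (-0.35) and Hdac2 (-0.44) fell, and of 8 genes that Gfi1 represses, Id2 rose (0.34). Of 6 inhibitors of neutrophil proteases, Serpinb6b (-0.41) and the elastase inhibitor Slpi (-0.63) fell and Serpina3n (0.73) rose. Id2 and Serpina3n were not past the threshold without the arrays with transcripts of another tissue (adjusted p of 0.0645 and 0.0505, limma). Among 10 neighbours of the members on their chromosomes, Med16 (0.27) and Tspoap1 (0.71) rose.

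In marrow after 1 dose, 0 of 6 members passed limma's test, where 7.36% of all genes were called by adjusted p. Gfi1 alone of the members had an unadjusted p under 0.05, a limit at which all genes were not counted. All 6 differences were below 0, from -0.12 (Elane) to -0.36 ± 0.17 (Gfi1; adjusted p = 0.200). Gfi1 had 8.89, 9.07, 9.35 and 8.90 log2 units under baclofen, against 9.68, 9.59, 9.13 and 9.26 under vehicle. Baclofen replicate 3, the array with muscle transcripts, was the highest of its group for every member. Without it and the 3 spleen arrays with liver transcripts the differences were -0.19 (Mpo) to -0.46 (Gfi1), and none passed (adjusted p 0.0929 to 0.314). Of these differences, 3 had an unadjusted p under 0.05 by limma, with no count of all genes at that limit. Of the other genes of the azurophil list, Ctsc fell in marrow (-0.47 ± 0.14, adjusted p = 0.0463, limma). It encodes cathepsin C, which activates the serine proteases of the granules. The factors Cebpd (-0.78) and Irf8 (-0.26) and the monocyte receptor Ccr2 (-0.78) fell, and Cebpb (0.63), Id2 (0.60) and Ms4a7 (0.67), a relative of Ms4a3, rose. No gene of the other 12 lists passed there. Without baclofen replicate 3 there were 8 further calls among the listed genes: Il1b (-1.20), F13a1 (-0.53), Fcgr3 (-0.48), Mmp9 (-0.45), Rara (-0.43), Spi1 (-0.42) and Lyz2 (-0.20) fell and Cdkn1a (0.48) rose.

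After 5 doses all 6 genes were again below vehicle in marrow, and Prtn3 passed. All 6 had an unadjusted p under 0.05 by limma, but how many of all genes had one was not counted. The 6 are not independent of each other, as their deviations in marrow ran together (r of 0.824 to 0.963). Prtn3 had 13.08 to 13.74 log2 units in the 8 baclofen marrows (median 13.29), against 14.00, 13.88, 13.78 and 13.40 in the vehicle marrows. Of the 8 baclofen arrays, 6 were below the lowest vehicle array, and replicates 7 and 8 were not. It fell by 0.46 ± 0.12 (adjusted p = 0.0268, limma), or 1.38-fold. Ctsg had 12.188 to 13.001 under baclofen (median 12.396), against 13.18, 12.91, 12.87 and 12.48 under vehicle, a difference of -0.43 ± 0.14 (adjusted p = 0.0514). Ms4a3 differed by -0.50 ± 0.17 (adjusted p = 0.0601) and Gfi1 by -0.36 ± 0.15 (adjusted p = 0.122). Elane differed by -0.25 ± 0.10 (adjusted p = 0.0988).

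Mpo differed least, by -0.20 ± 0.07 (adjusted p = 0.0846), with 13.86 to 14.27 under baclofen (median 14.03), against 14.40, 14.17, 14.20 and 14.12 under vehicle. Of its 8 baclofen arrays 7 were below the lowest vehicle array, the most of any member. The 1 member called stands beside 10.1% of all genes called in either direction and 3.93% that fell. The median of the 6 was -0.40, against 0.00 for all genes. Ctsg and Ms4a3 passed as well without the marrow array with muscle transcripts, which enters through the shared spread (adjusted p of 0.0341 and 0.0462, limma). Baclofen replicate 8 was the highest of its group for all 6 members, and without it 5 of 6 passed. The call of Prtn3 was lost without vehicle replicate 1, 2 or 3 or baclofen replicate 6, and 3 members passed without vehicle replicate 4. B cell genes averaged 7.91 in baclofen replicate 8, against 9.51 to 10.10 in the other 7 baclofen arrays and 8.90 to 9.52 under vehicle. The part of this difference in the members' values was not tested.

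Several genes of granulocyte formation fell in marrow after 5 doses. Ctsc fell again (-0.43 ± 0.12, adjusted p = 0.0319, limma), alone of 11 azurophil genes. Of 13 transcription factors 4 fell: Spi1 (-0.53), which encodes PU.1, Cebpd (-0.66), Rara (-0.39), the retinoic acid receptor of granulocyte maturation, and Cbfb (-0.20), the partner of RUNX1. Of 9 receptors, Csf2rb (-0.64), the shared chain of the IL-3 and GM-CSF receptors, and Cd177 (-0.38) fell, and Flt3 rose (0.27). The neutrophil genes Il1b (-0.99) and Lcn2 (-0.19), which encodes a siderophore-binding protein, fell, 2 of 14 tested, and all 14 were below 0 with a median of -0.18. The basophil and mast cell gene Hdc fell (-0.52). In the other direction, 5 of 8 erythroid genes rose, among them Epor (0.53) and Fech (0.48), as did Vcam1 (0.43) and Cd5l (0.63) of 12 monocyte and macrophage genes. No gene of the lists for Gfi1 partners, genes Gfi1 represses, protease inhibitors, chromosomal neighbours, eosinophils, cycling cells, B cells, T cells, hepatocytes or skeletal muscle passed there. Without the marrow array with muscle transcripts Fcgr3, Itgam, Ltf, Mmp9 and Slpi passed as well, at -0.17 (Ltf) to -0.37 (Itgam).

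**Figure D3:**
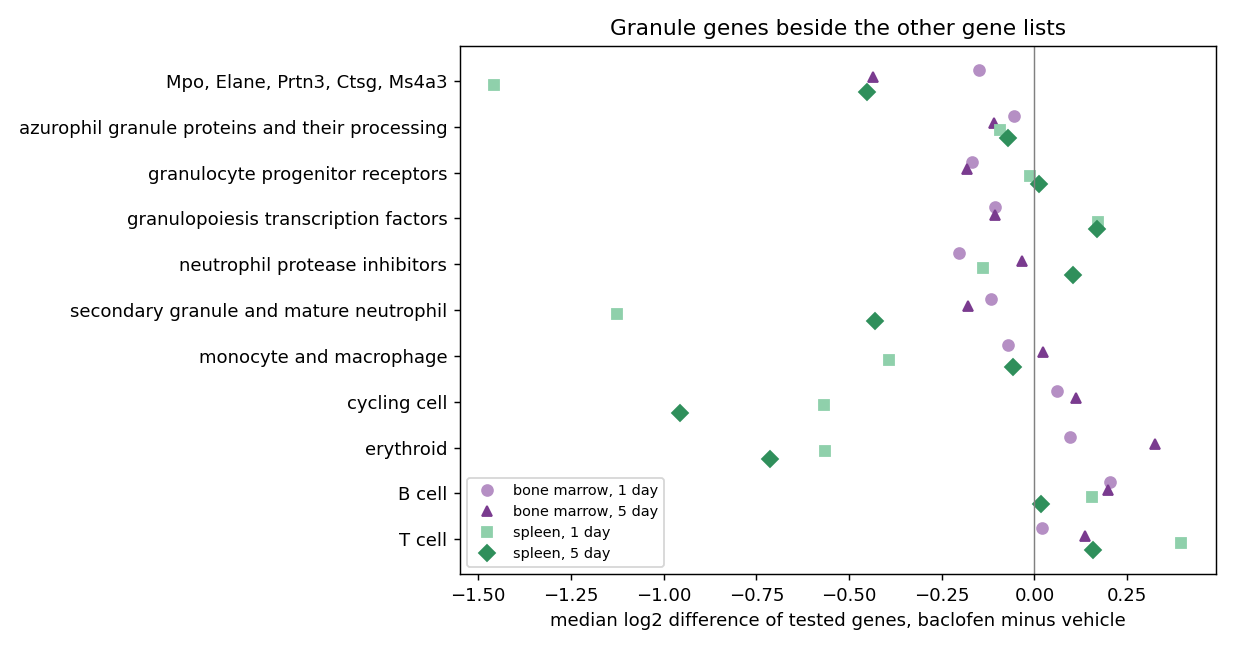
Median difference between baclofen and vehicle (x axis, log2 units) of the tested genes of each list (y axis), for marrow at 1 day (light circles) and 5 days (dark triangles) and spleen at 1 day (light squares) and 5 days (dark diamonds). In spleen at 1 day the granule genes (-1.46 without Gfi1) and the mature neutrophil genes (-1.13) lie farthest below 0, and the other azurophil genes lie at -0.09.

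In spleen after 5 doses 0 of 6 members passed limma's test and 0 had an unadjusted p under 0.05, where 4.43% of all genes were called. Mpo had 7.39 to 10.29 log2 units under baclofen (median 9.25), against 9.95, 9.38, 9.73 and 8.75 under vehicle, so the baclofen arrays spanned the whole vehicle range. The differences were -0.45 ± 0.42 for Mpo, -0.28 ± 0.34 for Elane, -0.63 ± 0.46 for Prtn3, -0.65 ± 0.45 for Ctsg, -0.37 ± 0.32 for Ms4a3 and -0.09 ± 0.14 for Gfi1. Without the 3 spleen arrays with the most liver transcripts they were 0.05, 0.11, -0.03, -0.13, 0.02 and 0.18 in the same order. The 95% interval of Mpo, -1.32 to 0.42, holds a fall close to that after 1 dose. Of the factors, Cebpd (0.73) and Gata2 (0.41) rose in these spleens, Id2 rose (0.37) and Spic fell (-0.49), and no gene of the other lists passed. Without the arrays with liver transcripts only Gata2 (0.45, adjusted p = 0.0396, limma) of these 4 genes passed, and Cd34 (0.76), a progenitor antigen, rose as well.

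The effect of baclofen did not change detectably between 1 and 5 days. The change from 1 to 5 days was 0.77 to 1.01 in spleen for the 5 members other than Gfi1 and -0.32 to 0.00 in marrow for all 6. In both tissues 0 members passed limma's test, 0 had an unadjusted p under 0.05, and 0% of all genes were called. Without the arrays with transcripts of another tissue the change in spleen was 1.16 to 1.51 for those 5 members, again with 0 calls (adjusted p 0.486 to 0.602, limma) and with 1 unadjusted p under 0.05, that of Elane (0.0384). Under vehicle, those 5 members were lower in spleen at 5 days than at 1 day, by -0.59 (Ms4a3) to -0.94 (Mpo), again with 0 calls, 0 unadjusted p under 0.05 and 0% of all genes. Without spleen vehicle 5 day replicates 1 and 3 the range was -0.88 to -1.32, with 0 calls by limma and unadjusted p under 0.05 for Mpo (0.0390) and, of all 6 members, also for Gfi1 (0.0183). Under baclofen the 5 genes differed between 5 days and 1 day by -0.05 to 0.24 in spleen. Gfi1 was -0.35 ± 0.14 there, with an unadjusted p of 0.0191 and an adjusted p of 0.234 by limma. No member passed between days under baclofen in either tissue, where 0.623% of all genes did in marrow and 0.522% in spleen.

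The effect after 1 dose was compared between the tissues in a fit of all 8 groups and 10210 genes. This fit took marrow and spleen arrays of the same number as independent. Marrow minus spleen, the effect was 1.33 ± 0.50 for Mpo, 1.13 ± 0.42 for Elane, 1.22 ± 0.57 for Prtn3, 1.36 ± 0.57 for Ctsg and 0.95 ± 0.43 for Ms4a3. For Gfi1 it was -0.49 ± 0.24. These 6 differences did not pass limma's test (adjusted p 0.135 to 0.235), where 1.22% of all genes were called by adjusted p. Of the 6, 5 had an unadjusted p under 0.05, and how many of all genes had one was not counted. Without spleen vehicle 1 day replicate 3 there were 5 calls. Without the 4 arrays with transcripts of another tissue the differences of these 5 genes were 0.83 to 1.26 and that of Gfi1 -0.59, with 0 calls by limma (adjusted p 0.118 to 0.241) and 4 unadjusted p under 0.05. After 5 doses the differences were -0.27 to 0.25, with 0 calls and 0 unadjusted p under 0.05 by limma, and 2.17% of all genes were called. Without those 4 arrays all 6 were below 0, from -0.54 to -0.25, with 0 calls by limma and 1 unadjusted p under 0.05, that of Gfi1.

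On the log2 scale the members other than Gfi1 had a larger SD within groups in spleen than in marrow. It was 0.74 in spleen and 0.12 in marrow for Mpo, a ratio of 6.21. It was 0.61 in spleen and 0.17 in marrow for Elane, 0.81 and 0.22 for Prtn3, 0.80 and 0.25 for Ctsg and 0.56 and 0.30 for Ms4a3, spleen first. Gfi1 had 0.24 in spleen and 0.26 in marrow. Without the 4 arrays with transcripts of another tissue the ratio was 7.01 for Mpo, 2.00 for Ms4a3 and 0.70 for Gfi1. Among the 5 genes the SD in marrow was smaller the brighter the gene, and Mpo was the 24th brightest of 18193 genes there at 14.12, where the brightest averaged 15.15. The part of the upper end of the intensity scale in these small marrow SDs, and in the small marrow differences, was not tested. Mpo spanned 13.86 to 14.40 over the marrow arrays and 7.39 to 11.09 over the spleen arrays.

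The granule genes went up and down together from array to array. Each array's value was set against its group mean, and each member's deviations were compared with the mean of the other members over the 20 arrays of a tissue. In marrow Pearson's r was 0.930 (Mpo) to 0.963 (Ctsg) for 5 members and 0.824 for Gfi1, and Spearman's rho was 0.871 to 0.965 for 5 members and 0.780 for Gfi1. In spleen r was 0.923 (Ms4a3) to 0.987 (Mpo) for the same 5 and rho 0.917 to 0.994, but Gfi1 had r = 0.148 and rho = 0.223. Without the 2 arrays farthest from the median r was 0.791 to 0.955 in marrow and 0.929 to 0.987 in spleen, with Gfi1 at 0.280 in spleen. These correlations are descriptions over arrays that share the normalization of their tissue, and 12 were computed. In spleen the highest deviations were in baclofen 5 day replicate 8 and the lowest in baclofen 5 day replicate 6 for Mpo, Prtn3 and Ctsg. Both arrays also had the largest 3 prime to 5 prime differences of the control probe sets in spleen, a measure of RNA quality. These were 0.549 in replicate 8 and 0.527 in replicate 6, against 0.280 to 0.436 in the other spleen arrays. The part of RNA quality in these deviations was not tested. Without the 4 arrays with transcripts of another tissue r stayed at 0.913 to 0.987 for the 5 genes in both tissues, and Gfi1 had 0.803 in marrow and -0.073 in spleen.

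**Figure D4:**
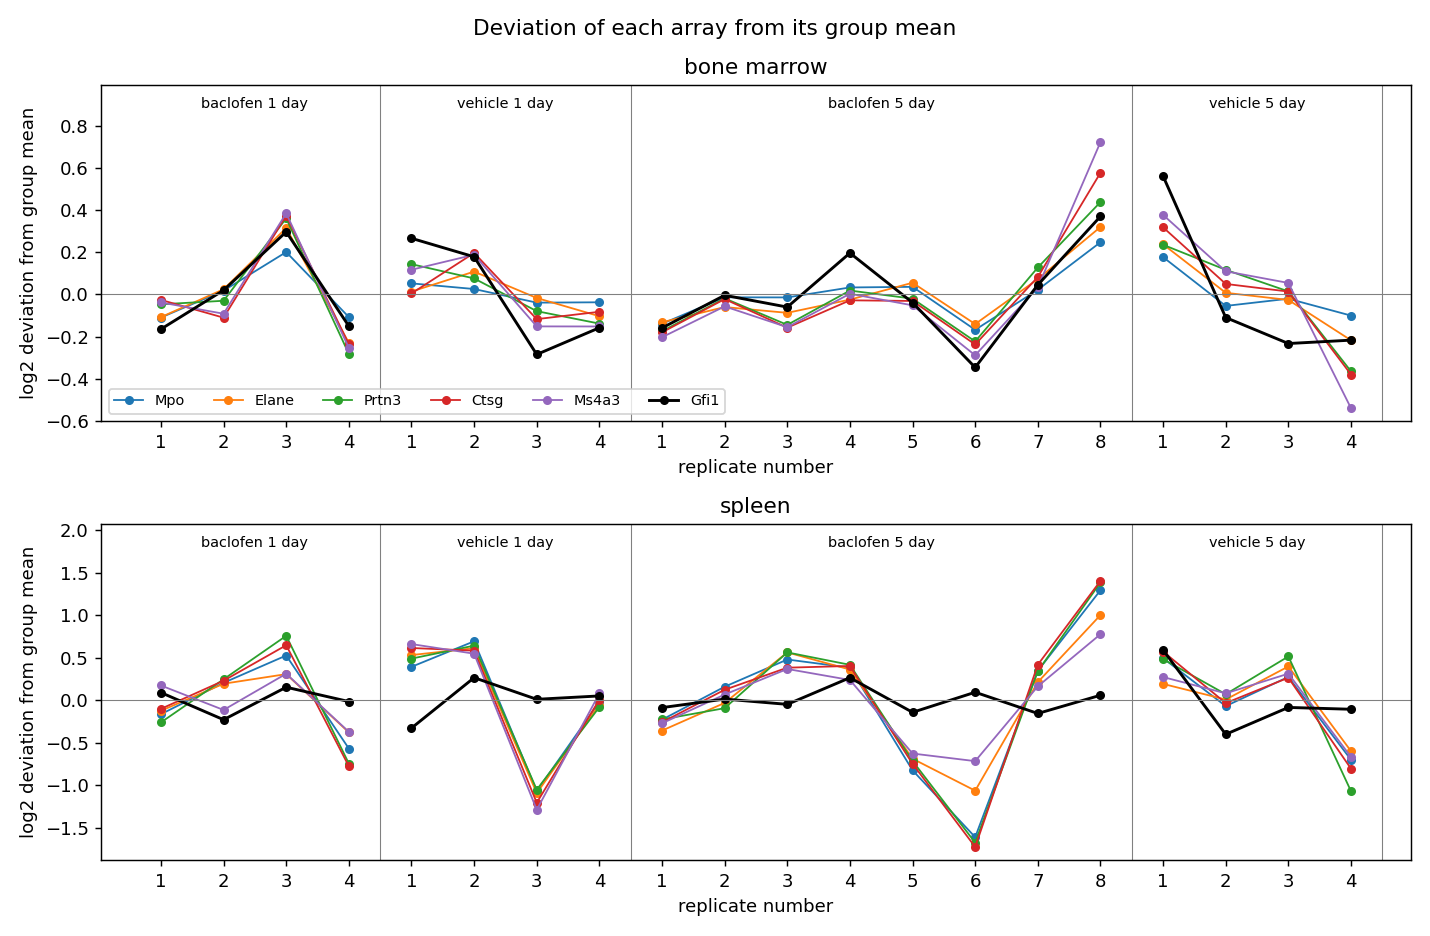
Deviation of each array from its group mean (y axis, log2 units) in marrow (top) and spleen (bottom), by group and replicate number (x axis), with 1 line per gene and Gfi1 in black. The y scales differ: spleen deviations run from -1.72 to 1.40, those of marrow from -0.54 to 0.72. In spleen all lines but that of Gfi1 run together.

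The genes whose deviations were most like the mean of the members differed between the tissues. In marrow they were Alas1, the housekeeping first enzyme of haem synthesis (r = 0.977), Prom1, a membrane protein of progenitor cells (0.974), Lbp (0.969), Nkg7, a granule membrane protein of cytotoxic lymphocytes (0.964), Far2 (0.957), the lysosomal glucuronidase gene Gusb (0.947), B4galt6 (0.946) and Cst7, an inhibitor of cathepsin C (0.941), among 10910 genes. In spleen they were Cd177 (r = 0.891), S100a8 (0.888), Chil3 (0.880), Ngp (0.874), Camp (0.874), Ltf (0.862), Lcn2 (0.860) and Sap30 (0.858). S100a8 through Lcn2 are genes of later neutrophil stages, of which Camp, Ltf and Lcn2 encode proteins of the secondary granules. Alas1 had r = 0.322 in spleen, and Ngp had r = 0.589 in marrow. Without the arrays with transcripts of another tissue the 8 marrow genes had r = 0.931 to 0.973 and ranks of 1 to 9, while the 8 spleen genes had r = 0.835 to 0.891 and ranks of 4 (Sap30) to 42 (Ltf).

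The mean of the members was also set against the mean of each of 17 gene lists in each tissue. In marrow the members ran with the other azurophil granule genes (r = 0.917, rho = 0.850), the progenitor receptors (r = 0.869, rho = 0.838) and the mature neutrophil genes (r = 0.760, rho = 0.744). They ran against the B cell genes (r = -0.862, rho = -0.823) and the erythroid genes (r = -0.656, rho = -0.571). In spleen the mature neutrophil genes were closest (r = 0.882, rho = 0.708), then the progenitor receptors (r = 0.678, rho = 0.568), the monocyte and macrophage genes (r = 0.517, rho = 0.480) and the other azurophil granule genes (r = 0.497, rho = 0.377). The B cell genes ran against the members there too (r = -0.596, rho = -0.547). Without the 2 arrays farthest from the median, r was 0.843 for azurophil genes, 0.604 for mature neutrophil genes and -0.798 for B cell genes in marrow, and 0.802 for mature neutrophil genes, 0.630 for progenitor receptors, 0.611 for azurophil genes, 0.500 for monocyte genes and -0.393 for B cell genes in spleen, so that the receptors and the azurophil genes then lay close together. Without the 4 arrays with transcripts of another tissue r was 0.906 for azurophil genes and -0.845 for B cell genes in marrow, and 0.883 for mature neutrophil genes, 0.434 for azurophil genes and -0.674 for B cell genes in spleen. All of these are over 20 arrays, 34 relations were computed, and they are given without a test.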

How the data were processed

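The deposited values are signal intensity on a linear scale, which the authors made with RMA (robust multi-array averaging), per the submitters' processing notes, which also name limma; versions are not given in the sources used here. RNA was isolated with Qiagen kits and labelled by Affymetrix's One-Cycle protocol, per the labels' protocols. The values were taken to log2 here, with no further normalization. Of 45101 probe sets, 64 are controls; the annotation gives 1 symbol to 34945, several to 932 and none to 9160, and only the first kind was used. For each gene the probe set with the highest mean in a fit was kept, and genes at or above the 40th percentile of mean level (10916 per tissue) were tested. All 6 members passed in marrow and spleen (Ms4a3 in spleen only through its vehicle groups), and Elane and Prtn3 passed in liver. Each tissue's 4 groups were fitted with limma 3.58.1 in R 4.3.3 (lmFit and eBayes), with 2-sided Benjamini-Hochberg adjusted p over the genes tested and a threshold of 0.05. Effects were compared between marrow and spleen in a fit of their 8 groups on 10210 genes, and levels in the same fit with no filter. Shares of all genes called are by adjusted p, and an unadjusted p under 0.05 was counted among the members only. The limma fits were tested on simulated data. Correlations were computed with numpy 2.4.6 and pandas 2.3.3, with scipy 1.17.1 for Spearman's rho. Permutation p-values came from 100000 resamples within groups. Promoter windows came from RefSeq.

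The members and the gene lists were chosen with earlier results of these data known. Genes named besides the members follow a rule: the 8 genes most like the members in each tissue, and of each list up to 4 with the smallest adjusted p per comparison. Erythroid examples were kept to 2 and not all genes of the rule are named. Genes that gained or lost a call without the 4 arrays with transcripts of another tissue were named after their values were seen. Replicate numbers were not taken to pair samples: over genes, same-numbered baclofen and vehicle arrays of a tissue had deviations that correlated by -0.458 to 0.271, with 3 of 16 over 0.1. That check does not bear on marrow and spleen arrays of the same number. In those, the granule genes other than Gfi1 correlated (r = 0.552 to 0.777). The reported fit of 8 groups took them as independent, so its SEs and p-values ignore any such pairing. The alternatives were other filters, probe set choices and normalizations, eBayes with trend, array weights, a 3 prime to 5 prime covariate, the replicate block, a fit of only the groups compared, and each replicate left out; leaving out 4 arrays with transcripts of another tissue was planned too. A spread of its own in each tissue, a block of group and number, and the repeat of listed genes, spreads and likeness without those 4 arrays were chosen after seeing the data. The labels give no date or batch.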

Additional observations from a re-analysis of the deposited data

Results flagged for a closer look

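In the group of 8 baclofen marrows at 5 days, replicate 8 stood above the others for 3 genes by Dixon's criterion, a gap to the nearest array that is large against the range of the group. Its log2 intensity was 14.006 for Elane, with the next array at 13.76, 13.001 for Ctsg, with the next at 12.51, and 12.231 for Ms4a3, with the next at 11.54. The same array had the lowest level of B cell genes in marrow (7.91). In the vehicle marrows at 5 days, replicate 1 stood above the others for Gfi1, at 9.92, with the next array at 9.25. Chance flags about 1 in 20 groups, and 48 combinations of gene and group were searched, which are not independent of each other.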

How the results depend on the processing

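Of 426 recomputed counts of called members and relations between members, 400 stayed the same by the rule for their kind. A count had to stay within 1.5 times the value reported. A relation had to keep its sign and its side of an adjusted permutation p of 0.05. Of 1428 recomputed differences of single members, 1342 kept their direction and side of the threshold, 33 were no longer past it, 33 came past it and 20 changed sign. All 6 members stayed past the threshold between marrow and spleen in each setting tried. In marrow at 5 days the 1 member called became 3 with the 60th percentile filter, 2 with eBayes trend and robust options, 5 with array weights, 3 without the arrays with transcripts of another tissue, and 0 to 5 with single arrays left out. The replicate block gave 0 there and 4 in spleen at 1 day, where 3 were reported, and changed no other count of called members; the numbers were not taken to pair samples. In spleen at 1 day the 3 members became 0 with no level filter, 0 with only the groups compared, 5 with array weights and 0 to 5 with single arrays left out. Array weights also gave 1 member between days under baclofen in spleen and 5 for the effect in marrow minus spleen at 1 day, which was 0 to 5 with single arrays left out. Why these counts moved was not tested. Without the arrays with transcripts of another tissue, the spleen differences at 5 days changed sign to 0.051 for Mpo, 0.11 for Elane, 0.015 for Ms4a3 and 0.18 for Gfi1; marrow minus spleen at 5 days became -0.25 for Mpo, -0.36 for Elane, -0.43 for Prtn3 and -0.31 for Ctsg; and Gfi1 against the other members in spleen became r = -0.073. Quantile normalization turned marrow minus spleen at 5 days to -0.0080 for Elane. With single arrays left out, the uncalled 5-day differences ranged over 0 as follows: -0.22 to 0.11 for Gfi1 in spleen, -0.12 to 0.23 for Elane in marrow minus spleen, -0.067 to 0.53 for Prtn3 in marrow minus spleen, -0.031 to 0.48 for Ctsg in marrow minus spleen and -0.32 to 0.084 for Ms4a3 in marrow minus spleen. Over all genes, the number called moved between settings: from 262 to 2416 in marrow at 1 day (803 reported), 30 to 4404 in marrow at 5 days (1100), 677 to 3651 in spleen at 1 day (1697), 61 to 957 in spleen at 5 days (484), 4 to 2251 for marrow minus spleen at 1 day (125) and 34 to 1696 at 5 days (222). Between days under baclofen it was 13 to 393 in marrow (68) and 0 to 1209 in spleen (57). For the change from 1 to 5 days and for vehicle between days it was 0 as reported, and up to 45 and 523 in marrow and 33 and 0 in spleen. Testing probe sets apart gave 26215, 25261, 28855 and 26037 calls between the tissues among 34945 probe sets (13808, 13322, 15019 and 13687 among 18193 genes reported). The numbers tested differ, so these counts are not like for like. The arrays' number limits what can be seen: in spleen the SE of the granule genes was 0.32 to 0.53.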

Other observations

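The marrow and spleen arrays carry replicate numbers, and the labels do not say whether a number marks an animal. After the data were seen, deviations from the group mean were compared between marrow and spleen arrays of the same condition and number, over 20 pairs. They correlated for Prtn3 (Pearson's r = 0.777, permutation p = 0.00015, adjusted 0.00035; Spearman's rho = 0.758, permutation p = 0.00072, adjusted 0.00101), for Ctsg (r = 0.756, rho = 0.818), for Mpo (r = 0.728, rho = 0.765), for Ms4a3 (r = 0.689, rho = 0.762) and for Elane (r = 0.552, rho = 0.561). Permutation p-values of r for these other 4 genes were 0.00043, 0.00048, 8e-05 and 0.00527, adjusted over the 7 relations computed to 0.000672, 0.000672, 0.00035 and 0.00615. Gfi1 had r = 0.446 and rho = 0.212 (permutation p of 0.163 and 0.422, adjusted 0.163 and 0.422). Without the 2 arrays farthest from the median r was 0.691 for Prtn3, 0.665 for Ctsg, 0.639 for Mpo, 0.594 for Ms4a3, 0.424 for Elane and 0.113 for Gfi1. Without the 4 arrays with transcripts of another tissue, which left 16 pairs, r was 0.677 to 0.826 for the 5 granule genes and 0.054 for Gfi1. Baclofen 5 day replicate 8 had the highest mean of the members in its group in both marrow and spleen, and replicate 6 the lowest in both. In another measure, the deviations of 10218 genes were correlated within each pair, which gave -0.242 to 0.452, with 11 of 20 pairs over 0.1. These values are no background for the r of a single gene over 20 pairs. That r was computed for the members and their mean only.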
